A study of Saccharomyces cerevisiae with 33 samples.

Results

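The ino2Δ strain grown under carbon limitation was represented by 3 arrays, labelled ino2 mutant and carbon limited, and these were compared with the 3 arrays of the reference strain grown in the same way. The arrays were chosen by their labels alone, without use of any measured value, and the pair of groups made up 6 of the 33 arrays in the series. The series measured the transcriptome of *Saccharomyces cerevisiae* with the Affymetrix Yeast Genome 2.0 array in chemostat cultures that differed in their INO-level, the transcript level of *INO2* and *INO4*. Besides the ino2Δ strain and the reference it held ino4Δ, ino2Δino4Δ and opi1Δ strains, and cultures limited by nitrogen as well as by carbon, in 11 groups of 3 arrays. Each probe set that named 1 *S. cerevisiae* gene was used, and 5449 genes were tested in each comparison.

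The ino2Δ arrays came from CEN.PK1027-1B, a MATa strain whose *INO2* reading frame was replaced by a loxP-Kan-loxP cassette. The reference arrays came from CEN.PK113-7D, also MATa. Both strains grew aerobically in glucose-limited minimal medium, and inositol and choline were added to the medium of all groups. The ino2Δ genotype was therefore represented by 1 strain. Measurements of growth and metabolites in these chemostats were made on biological replicates. Whether the 3 arrays of a group came from those cultures, 1 array each, is not given in the sources used here, and the p-values then measure only the spread between these arrays. The deposited values are log2 signals, and 1 log2 unit is a 2-fold difference. A gene was called changed at a Benjamini-Hochberg adjusted p below 0.01 in limma, fitted over all 33 arrays.

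*INO2* and *INO4* encode the basic helix-loop-helix proteins that bind DNA as a heterodimer at the inositol-choline response element in the promoters of phospholipid genes. The dimer activates genes for inositol synthesis and uptake and for the route from CDP-diacylglycerol to phosphatidylcholine. The repressor Opi1 holds this activation back when inositol is plentiful and phosphatidic acid is scarce at the endoplasmic reticulum. Yeast cells that lack Ino2 need inositol in the medium for growth.

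The deleted gene was near background in all 3 ino2Δ arrays, while its partner was not read alike in them. *INO2* had a log2 signal of 5.22, 5.22 and 5.22 in ino2Δ replicates 1, 2 and 3, against 6.26, 6.19 and 6.25 in the reference. The ino2Δ values lay below the background level, 5.47 over all arrays, which was taken from probe sets that name no *S. cerevisiae* gene. All ino2Δ arrays were therefore lower than all reference arrays, and *INO2* fell by 1.01 ± 0.16 (SE, n = 3 each, adjusted p = 0.00043), at least 1.78-fold lower because the ino2Δ signal is only a bound.

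*INO4*, which the ino2Δ genotype leaves in place, had a log2 signal of 6.53, 5.08 and 5.06 in the ino2Δ arrays, against 6.92, 6.74 and 6.96 in the reference. Replicate 1 was close to the reference, whereas replicates 2 and 3 were at background, at the level read in the arrays labelled ino4Δ. Over the 3 arrays the difference was -1.32 ± 0.30, which did not pass (adjusted p = 0.0154). An exact two-sided permutation test gave p = 0.1 for either gene, the smallest p that 3 arrays against 3 allow. In the N-limited ino2Δ arrays *INO4* was read at 7.09, 7.06 and 6.99.

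The same reading was made in the neighbouring strains. In the arrays labelled ino4Δ under carbon limitation, *INO2* was at background in replicate 3 only, and in those labelled ino2Δino4Δ, *INO4* was present in replicate 1 only, at 6.64. Replicates 2 and 3 of ino2Δ thus go against their label in *INO4*, and ino2Δ replicates 1, 2 and 3 stand for the arrays so labelled throughout. The comparison with the reference was therefore fitted both with all 3 arrays and with replicate 1 alone. The second fit left out the 4 C-limited arrays whose *INO* levels go against their labels, namely ino2Δ replicates 2 and 3, ino4Δ replicate 3 and ino2Δino4Δ replicate 1. A single ino2Δ array has no spread of its own, so that fit takes the spread wholly from the other groups and assumes that the lone array varies as they do. Its p-values say nothing of how ino2Δ cultures vary.

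**Figure D1:**
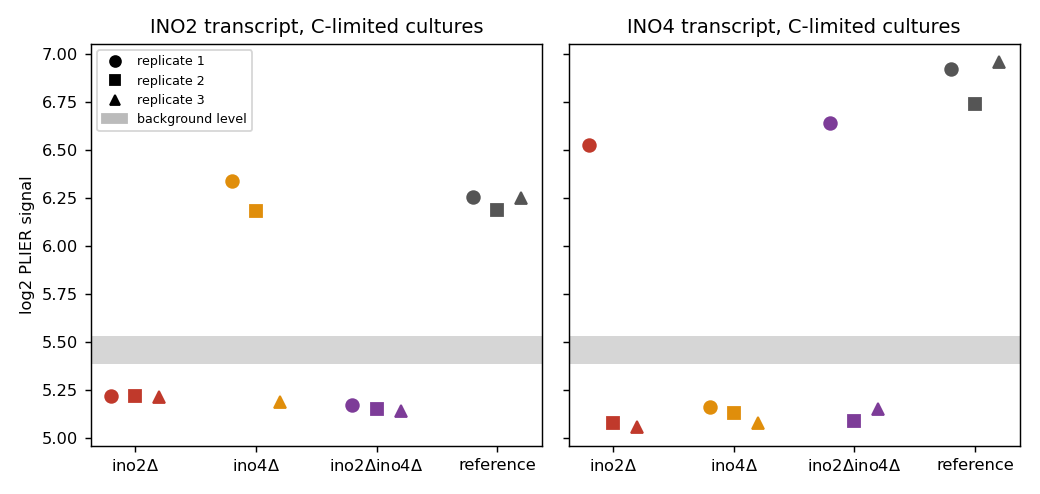
Log2 PLIER signal of *INO2* (left) and *INO4* (right) in the C-limited arrays of ino2Δ, ino4Δ, ino2Δino4Δ and the reference; each symbol is 1 array and the grey band is the range of the background level over arrays. *INO2* was near 5.22 in all ino2Δ arrays, whereas *INO4* was 6.53 in replicate 1 and 5.08 and 5.06 in replicates 2 and 3.

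The sodium pump gene *ENA5* separated the arrays in another way. Its log2 signal was 5.78, 5.66 and 5.70 in the ino2Δ arrays, against 6.49, 6.45 and 6.38 in the reference, and it fell by 0.73 ± 0.06 (adjusted p = 3.4e-09, and 3.3e-05 with replicate 1 alone). In all 12 arrays labelled with a single deletion of *INO2* or *INO4* it lay between 5.49 and 5.78, and in the other 21 arrays between 6.25 and 6.53. All 3 ino2Δ arrays were thus on the side of the single deletions, replicates 2 and 3 included. *ENA5* was named because it alone passed between ino2Δ and ino2Δino4Δ under carbon limitation. It was picked from these same arrays, so that its position is no separate check of their labels. The ENA pump genes are near-identical copies, so that the probe set may read more than 1 of them. The background level of the arrays split as *ENA5* did. It lay between 5.39 and 5.45 in the 12 single-deletion arrays and between 5.46 and 5.53 in the other 21. A difference in *ENA5* between strains therefore cannot be told apart from a difference between these sets of arrays.

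The distance between arrays, measured as the SD of the log2 difference over all genes, set ino2Δ replicates 2 and 3 apart from replicate 1 and from the reference. The arrays labelled ino2Δ replicates 2 and 3 differed by 0.0428, the smallest of the 528 pairs of arrays. Replicate 1 stood at 0.404 and 0.40 from replicates 2 and 3, while the reference arrays differed among themselves by 0.0845 to 0.150. From the reference arrays, ino2Δ replicate 1 stood at 0.1817 to 0.2125, and ino2Δ replicates 2 and 3 at 0.4005 to 0.4238. Replicate 1 of ino2Δ was nearest to replicate 1 of ino2Δino4Δ, at 0.116. With the mean of replicates 2 and 3 used as 1 array, a setting added after the data were seen, limma called 25 genes changed.

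Counted array by array, 20 genes differed at least 2-fold from the mean of the reference arrays in replicate 1, 156 in replicate 2 and 155 in replicate 3. The same 14 genes did so in all 3 arrays, and all 14 were lower. They were *INO1*, *ITR1*, *OPI3*, *CHO2* and *INO2*, the mannoprotein genes *PAU2*, *PAU3*, *PAU5*, *PAU7*, *PAU24* and *TIR4*, and *SPS100*, *YNR068C* and *YBL112C*, the last at 6.30 in reference replicate 3 as well. A further 138 genes passed 2-fold in replicates 2 and 3 and not in replicate 1, 25 of them higher and 113 lower. For scale, each reference array against the mean of the other 2 gave 2, 0 and 3 genes.

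In the test over all 3 arrays 45 of 5449 genes changed, or 0.826%, with 5 higher (0.0918%) and 40 lower (0.734%) in ino2Δ. Of the 40 that fell, 22 fell at least 2-fold, and 1 gene rose that much. With replicate 1 alone 23 genes changed (0.422%), 5 higher and 18 lower, and 17 genes were called both times, each in the same direction, so that 28 of the 45 lost their call in that fit. All 45 genes had groups that did not overlap, which 29.2% of all genes also showed, 900 of them with ino2Δ above the reference and 689 with ino2Δ below it. The spread within ino2Δ was uneven, since 36 of the 40 fallen genes were lower in replicates 2 and 3 than in replicate 1. Leaving out replicate 1 gave 290 changed genes, 118 higher and 172 lower, and leaving out any other of the 6 arrays gave 25 to 28.

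Inositol synthesis carried the largest fall. *INO1*, which encodes the synthase that makes inositol phosphate from glucose 6-phosphate, had a log2 signal of 6.01, 6.22 and 6.18 in ino2Δ, against 9.81, 9.80 and 9.89 in the reference. The groups were far apart, and the 3 ino2Δ arrays lay within 0.21 of each other although *INO4* differed among them. *INO1* fell by 3.70 ± 0.18, or 13.0-fold (adjusted p = 1.6e-13), and the difference in replicate 1 alone was -3.82 (adjusted p = 1.4e-10).

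*ITR1*, the main inositol permease, was also lower in every ino2Δ array. Its log2 signal was 8.93, 8.26 and 8.37 in ino2Δ, against 10.12, 10.06 and 10.05 in the reference, and it fell by 1.56 ± 0.14 (adjusted p = 1.6e-08). Replicate 1 was the highest of the ino2Δ arrays, at -1.15 (adjusted p = 6.0e-05) when taken alone. The minor permease *ITR2* was read at 8.42, 8.32 and 8.36 in ino2Δ, against 8.35, 8.32 and 8.25 in the reference. *PIS1*, the phosphatidylinositol synthase that uses inositol, was read at 7.93, 8.30 and 8.34 in ino2Δ, against 7.77, 7.82 and 7.86, and did not pass (0.37, adjusted p = 0.54). Of the 6 inositol genes measured, 2 fell and none rose.

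On the route from CDP-diacylglycerol to phosphatidylcholine, both methyltransferases fell and the genes before them did not pass the test. *OPI3*, which adds the last methyl groups, had a log2 signal of 7.91, 7.40 and 7.46 in ino2Δ, against 9.97, 9.91 and 10.01 in the reference. It fell by 2.38 ± 0.27, or 5.19-fold (adjusted p = 2.3e-06), and all ino2Δ arrays were far below the reference. *CHO2*, which adds the first methyl group to phosphatidylethanolamine, had 8.42, 8.25 and 8.28 in ino2Δ, against 9.60, 9.63 and 9.43. It fell by 1.24 ± 0.16 (adjusted p = 1.5e-05). Both also passed with replicate 1 alone, at -2.06 (adjusted p = 0.0082) for *OPI3* and -1.14 (adjusted p = 0.0048) for *CHO2*.

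The earlier steps and the mitochondrial branch differed less, and in both directions. *CHO1*, phosphatidylserine synthase, was read at 8.56, 8.78 and 8.76 in ino2Δ, against 8.97, 9.0 and 9.14 in the reference (-0.34 ± 0.11, adjusted p = 0.11). *CDS1*, CDP-diacylglycerol synthase, was read at 7.84, 7.65 and 7.66 in ino2Δ, against 8.35, 8.42 and 8.40 (-0.67 ± 0.23, adjusted p = 0.14). For both genes every ino2Δ array was below every reference array, as for 12.6% of all genes, although the test was not passed. The phosphatidylserine decarboxylase genes *PSD1* and *PSD2* differed by -0.03 and 0.07 and did not pass. The 4 genes of the mitochondrial cardiolipin branch differed by 0.13 to 0.26 and did not pass either. Among them *PGS1*, *CRD1* and *TAM41* had every ino2Δ array above every reference array, as 16.5% of all genes did. Of the 10 genes of this route, 2 fell and none rose, with a median difference of 0.02, the same as that of all genes.

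No gene of the Kennedy pathway, which builds phospholipids from choline and ethanolamine taken up from the medium, passed. *HNM1*, the choline permease, was read at 8.01, 8.13 and 8.18 in ino2Δ, against 8.83, 8.79 and 8.67 in the reference (-0.66 ± 0.25, adjusted p = 0.19). *CPT1*, cholinephosphotransferase, differed by -0.31 ± 0.07 (adjusted p = 0.021), and *CKI1*, choline kinase, by -0.26 ± 0.09 (adjusted p = 0.13). All 3 ino2Δ arrays lay below all reference arrays for these 3 genes, a position that 12.6% of all genes also had. The median over the 7 genes of the pathway was -0.18. None of the 7 genes around phosphatidic acid phosphatase passed.

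The fatty acid synthase genes fell, but not by the same amount in each array. *FAS1*, the beta subunit, had a log2 signal of 10.86, 10.04 and 10.05 in ino2Δ, against 11.56, 11.70 and 11.48 in the reference, and fell by 1.26 ± 0.20 (adjusted p = 0.00029). *FAS2*, the alpha subunit, had 9.92, 9.64 and 9.61 in ino2Δ, against 10.83, 10.87 and 10.74, and fell by 1.09 ± 0.16 (adjusted p = 0.00010). Every ino2Δ array was below every reference array, with replicate 1 the nearest to the reference. With replicate 1 alone the differences were -0.72 (adjusted p = 0.15) for *FAS1* and -0.90 (adjusted p = 0.043) for *FAS2*, so that neither call was kept.

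*ACC1*, acetyl-CoA carboxylase, had the smallest but most even change of the group. It was read at 10.92, 10.87 and 10.88 in ino2Δ, against 11.38, 11.39 and 11.29 in the reference, and fell by 0.46 ± 0.07 (adjusted p = 9.2e-05). The difference in replicate 1 alone was -0.43 (adjusted p = 0.041). *FAA1*, the main long-chain acyl-CoA synthetase, fell by 1.17 ± 0.18 (adjusted p = 0.00019) over 3 arrays, and its difference was -0.62 (adjusted p = 0.34) in replicate 1 alone. Of the 19 fatty acid genes measured, 4 fell with 3 arrays and none with replicate 1 alone. The desaturase *OLE1*, at -0.27 ± 0.19 (adjusted p = 0.57), and the elongase *ELO1*, at 0.46 ± 0.13 (adjusted p = 0.059), did not pass.

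Among the regulators, the repressor gene *OPI1* was read at 7.53, 7.32 and 7.31 in ino2Δ, against 7.96, 7.96 and 8.26 in the reference. It fell by 0.67 ± 0.13 (adjusted p = 0.004), and the difference in replicate 1 alone was -0.53 (adjusted p = 0.71). The kinase subunits *SNF1* and *SNF4* differed by -0.08 and 0.24 and did not pass. Of the 11 regulators measured, *INO2* and *OPI1* fell and none rose.

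**Figure D2:**
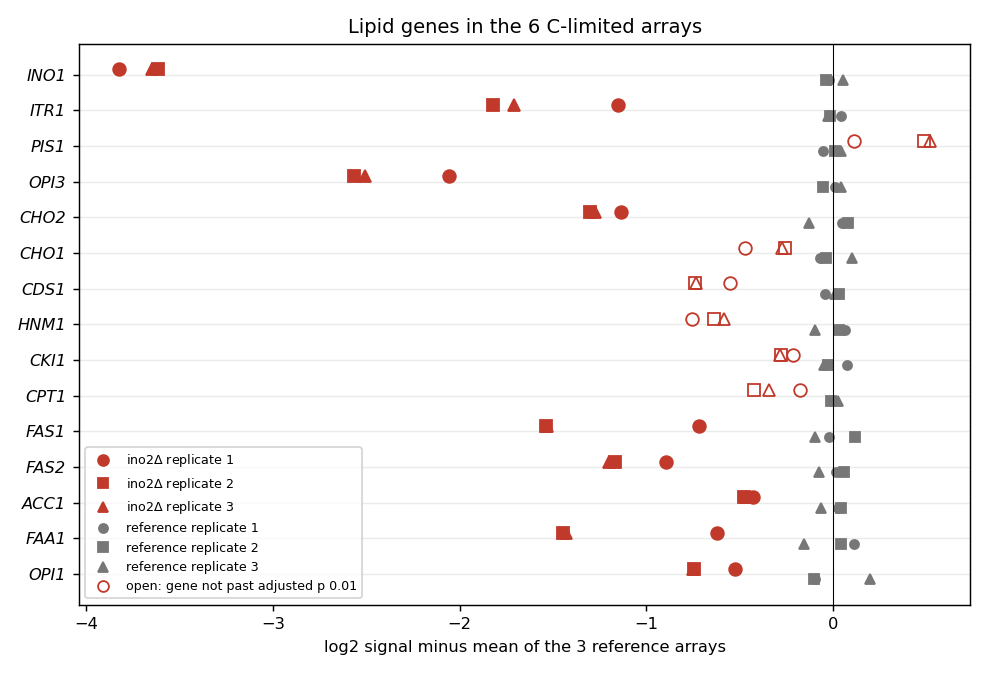
Log2 signal minus the mean of the 3 C-limited reference arrays (x axis) for 15 lipid genes, with the ino2Δ arrays in red above the reference arrays in grey on each line; open red symbols mark genes that did not pass. *INO1* and *OPI3* lay more than 2 log2 units below the reference in every ino2Δ array, and *FAS1*, *FAA1* and *ITR1* were nearer to the reference in replicate 1 than in replicates 2 and 3.

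Methylation of phosphatidylethanolamine uses S-adenosylmethionine, and none of the 29 genes of the methyl cycle and sulfate assimilation passed. *SAM2*, an S-adenosylmethionine synthetase, was read at 9.50, 9.56 and 9.60 in ino2Δ, against 10.60, 10.54 and 10.58 in the reference. The groups were well apart, but with the SE estimated over all 33 arrays the test was not passed (-1.02 ± 0.46, adjusted p = 0.29). *SAH1*, which removes the S-adenosylhomocysteine that methylation leaves, differed by -0.61 ± 0.16 (adjusted p = 0.049), and *MET6*, methionine synthase, by -0.58 ± 0.23 (adjusted p = 0.23). *SAM3*, the S-adenosylmethionine permease, fell by 0.90 ± 0.15 (adjusted p = 0.00054) and lost its call with replicate 1 alone (adjusted p = 0.13). It was on no list and was named after its values were seen.

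Outside lipid synthesis, the most members fell among the PAU, TIR and DAN genes, which encode cell wall mannoproteins known to be induced when oxygen is lacking. Of the 19 measured, 9 fell and none rose, with a median of -0.59, against 0.02 for all genes. With replicate 1 alone 5 fell, and the group median was -0.41, -0.67 and -0.69 in replicates 1, 2 and 3. The PAU genes are near-identical in sequence, and the probe sets may not tell them apart, so that the count may exceed the number of genes that changed.

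*PAU24* was read at 6.24, 5.70 and 5.68 in ino2Δ, against 7.96, 8.0 and 7.95 in the reference, and fell by 2.10 ± 0.17 (adjusted p = 6.8e-09). *TIR4* was read at 6.21, 5.69 and 5.75 in ino2Δ, against 7.38, 7.43 and 7.48, and fell by 1.54 ± 0.10 (adjusted p = 3.9e-11). In both genes replicate 1 was the highest ino2Δ array and still more than 1 log2 unit below the reference. *PAU2* was more uneven, at 8.46, 6.12 and 6.09 in ino2Δ, against 9.57, 9.65 and 9.76, and fell by 2.78 ± 0.45 (adjusted p = 0.00042). *PAU3*, *PAU7* and *PAU5* fell by 2.29, 1.84 and 1.72, and *PAU17*, *TIR1* and *DAN1* by 0.88, 0.59 and 0.43. With replicate 1 alone *PAU2*, *PAU3*, *PAU7*, *PAU24* and *TIR4* kept their calls, with adjusted p between 7.0e-10 and 1.3e-06, and *PAU5*, *PAU17*, *TIR1* and *DAN1* lost theirs, at 0.015, 0.018, 0.072 and 0.94. *DAN1* also lost its call without ino2Δ replicate 2 or 3 or reference replicate 1 or 3, with an adjusted p of 0.011 to 0.035. *PAU8*, at 0.24, and *PAU14*, at 0.42, were above the reference in replicates 2 and 3 and below it in replicate 1, and did not pass.

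In ergosterol synthesis 2 of 29 genes fell. *ERG25*, the C-4 methyl sterol oxidase, was read at 11.74, 10.65 and 10.69 in ino2Δ, against 12.09, 12.11 and 12.01 in the reference, and fell by 1.04 ± 0.20 (adjusted p = 0.0033). *ERG5*, the C-22 desaturase, fell by 1.06 ± 0.22 (adjusted p = 0.0084). Replicate 1 was much nearer to the reference than the other arrays, at -0.33 (adjusted p = 0.49) for *ERG25* and -0.37 (adjusted p = 1.0) for *ERG5* when taken alone. *ERG11* and *ERG6*, with differences of -1.10 (adjusted p = 0.023) and -1.10 (adjusted p = 0.034), had the same pattern and did not pass. The median of the 29 genes was -0.07 in replicate 1, against -0.35 and -0.33 in replicates 2 and 3. *HES1*, an oxysterol-binding protein homologue, was read at 6.85, 5.34 and 5.35 in ino2Δ, against 7.47, 7.38 and 7.59 in the reference, and fell (adjusted p = 0.00054). It was above background in replicate 1 only of the ino2Δ arrays, where the difference was -0.62 (adjusted p = 0.074), and the size of the fall in the other 2 is not known.

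Of 68 amino acid synthesis genes 2 fell, both of arginine synthesis. *ARG4*, argininosuccinate lyase, was read at 9.0, 8.41 and 8.41 in ino2Δ, against 9.76, 9.69 and 9.79 in the reference, and fell by 1.14 ± 0.22 (adjusted p = 0.0031). *ARG3*, ornithine carbamoyltransferase, fell by 0.73 ± 0.14 (adjusted p = 0.0036). Neither passed with replicate 1 alone (adjusted p = 0.34 and 0.59). Small differences were common in this list, with 41 genes (60.3%) lower in every ino2Δ array than in every reference array, against 12.6% of all genes. The list median was -0.11, -0.32 and -0.34 in replicates 1, 2 and 3. The cytosolic ribosomal proteins had 63 of 128 genes (49.2%) in the same position at a median of -0.11, and none of them passed.

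The other single calls were spread over several functions. *HXT1*, the low-affinity glucose transporter, fell and was at background in ino2Δ, at least 1.53-fold lower (adjusted p = 0.0072, and 0.49 with replicate 1 alone). *ADH5*, an alcohol dehydrogenase, fell by 0.79 ± 0.09 (adjusted p = 1.6e-06) and kept its call with replicate 1 alone (adjusted p = 0.0017). *AQY1*, a water channel, was read at 7.66, 5.43 and 5.43 in ino2Δ, against 8.33, 8.35 and 8.24, and fell by 2.13 ± 0.43 (adjusted p = 0.0057, and 0.16 with replicate 1 alone). *PBI1* was similarly uneven, at 8.53, 5.95 and 5.93 in ino2Δ, against 9.30, 9.44 and 9.38 in the reference, and fell by 2.57 ± 0.49 (adjusted p = 0.0033). With replicate 1 alone it kept its call, at -0.85 (adjusted p = 0.00082).

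Of the 5 genes that rose, *STL1* was the most even. This glycerol symporter was read at 7.75, 7.75 and 7.81 in ino2Δ, against 6.99, 7.0 and 6.93 in the reference, and rose by 0.80 ± 0.08 (adjusted p = 5.2e-07). It also rose with replicate 1 alone, by 0.77 (adjusted p = 0.00029). *PHO84*, the high-affinity phosphate transporter, was read at 6.01, 7.54 and 7.65 in ino2Δ, against 5.64, 5.67 and 5.68, and rose by 1.40 ± 0.25 (adjusted p = 0.0017). Its rise lay mainly in replicates 2 and 3, and replicate 1 alone was at 0.34 (adjusted p = 1.0). *FRE7*, a putative ferric reductase, rose by 0.75 ± 0.13, *PCP1*, a mitochondrial rhomboid protease, by 0.45 ± 0.09, and *UTR4*, of methionine salvage, by 0.44 ± 0.08, and none of these passed with replicate 1 alone.

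Calls that rested on single arrays were counted. Of the 45 genes, 23 kept their call whichever of the 6 arrays was left out, among them *INO1*, *ITR1*, *OPI3*, *CHO2*, *FAS1*, *FAS2*, *ACC1*, *FAA1*, *STL1* and *ENA5*. The other 22 lost it without 1 or more arrays. Leaving out ino2Δ replicate 2 or 3 kept the other of them, and this pair was the closest of all arrays. Leaving out 1 array therefore cannot show whether a call rests on that pair. *OPI1*, *PHO84*, *ARG3*, *ARG4*, *ERG5*, *ERG25*, *HXT1*, *AQY1* and *PBI1* lost theirs without any array other than ino2Δ replicate 1, with adjusted p between 0.01 and 0.141. *PCP1* did so as well, at 0.012 to 0.118. *HES1* and *FRE7* lost theirs without ino2Δ replicate 2 or 3, at 0.012 and 0.016, and *UTR4* without ino2Δ replicate 2 or 3 or reference replicate 1 or 2, at 0.021 to 0.028.

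Many genes had large differences in some ino2Δ arrays only and did not pass. The genes in this and the following paragraph were named after their values were seen. *FDH1*, a formate dehydrogenase, was read at 11.72, 5.41 and 5.43 in ino2Δ, against 10.53, 10.36 and 10.70 in the reference. *ADH2*, the alcohol dehydrogenase that oxidises ethanol, was read at 12.29, 7.52 and 7.77 in ino2Δ, against 12.05, 12.13 and 12.06 (-2.89 ± 0.74, adjusted p = 0.038). In both genes replicate 1 was above the reference and replicates 2 and 3 were far below it. The acetate transporter gene *ADY2* was read at 10.30, 5.86 and 5.93 in ino2Δ, against 9.36, 9.32 and 9.42, and the acetyl-CoA synthetase gene *ACS1* at 11.21, 8.57 and 8.57, against 11.02, 11.14 and 10.91. Without replicate 1 all 4 genes passed, with adjusted p of 2.6e-07 for *FDH1*, 3.5e-07 for *ADH2*, 0.00053 for *ADY2* and 6.6e-06 for *ACS1*.

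Other genes split the opposite way. *PCK1*, phosphoenolpyruvate carboxykinase, was read at 7.55, 9.39 and 9.37 in ino2Δ, against 7.64, 7.75 and 7.42 in the reference. *MFA1*, a gene for the mating pheromone of a cells, was read at 8.55, 10.05 and 10.02 in ino2Δ, against 9.10, 9.22 and 9.09. *STE2*, the a-cell receptor for alpha factor, was read at 8.15, 9.53 and 9.49 in ino2Δ, against 8.51, 8.55 and 8.60. For these genes replicate 1 lay at or below the reference and replicates 2 and 3 above it. Without replicate 1 *PCK1* passed (adjusted p = 0.0017), and *MFA1* and *STE2* did not. All 7 a-cell genes measured were above background in the 6 arrays, between 5.77 and 10.29, as the MATa label has it. None passed, and their median was -0.18, 0.91 and 0.89 in ino2Δ replicates 1, 2 and 3. Of the 4 genes of alpha cells, which a cells should lack, *MF(ALPHA)2* was at background in all 6 arrays, and the others lay between 5.44 and 6.54 with no call.

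**Figure D3:**
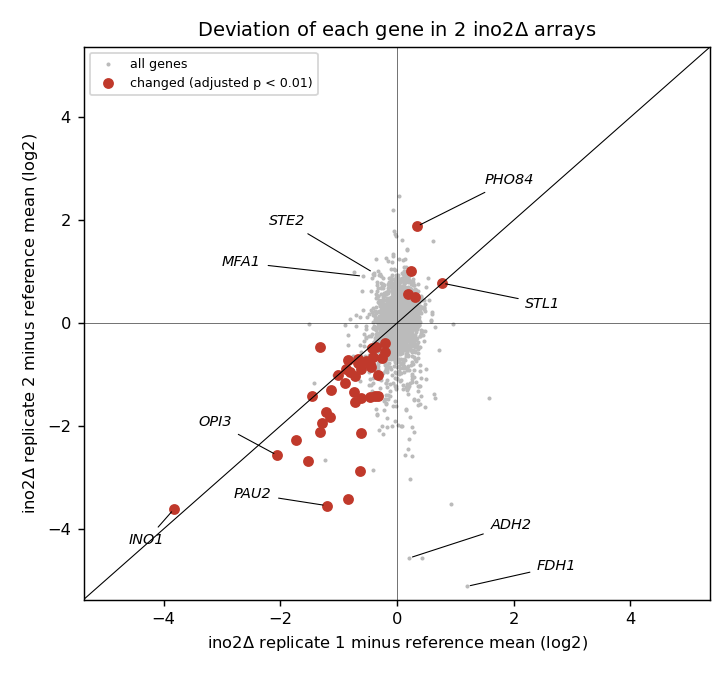
Log2 difference from the reference mean in ino2Δ replicate 1 (x axis) and replicate 2 (y axis) for 5449 genes (grey), with the 45 changed genes in red and the line of equal values. *INO1* and *STL1* lay near the line, while *FDH1* and *ADH2* were above the reference in replicate 1 and far below it in replicate 2.

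The split ran through whole gene groups, none of which had a member that passed. Of the 35 genes of peroxisomes and beta-oxidation, where yeast breaks down fatty acids, 0 differed 2-fold from the reference in replicate 1, 12 in replicate 2 and 12 in replicate 3. Their median was 0.14 in replicate 1, against -0.56 and -0.59 in the others. Gluconeogenesis and the glyoxylate cycle, 13 genes, had medians of 0.19, -0.46 and -0.42. Opposite in sign were the respiratory chain and ATP synthase, 44 genes with medians of -0.09, 0.43 and 0.42, and the citric acid cycle, 15 genes with -0.03, 0.43 and 0.43.

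The mitochondrial ribosomal proteins were split as well. In replicate 1, 34 of 66 were above the reference mean, in replicate 2 65 and in replicate 3 65, with medians of 0.01, 0.71 and 0.68. Of the 44 respiratory genes 8, 42 and 40 were above it in replicates 1, 2 and 3, and of the 7 a-cell genes 2, 7 and 7. The medians of all genes were 0.04, 0.01 and 0.00. The *INO4* level, the gap in these groups and the large number of 2-fold genes moved together in replicates 2 and 3. Other C-limited arrays with *INO4* at background were alike in some genes and not in others. *PBI1*, read at 8.53, 5.95 and 5.93 in ino2Δ, was at 5.80, 5.79 and 5.90 in ino4Δ. In ino2Δino4Δ, with *INO4* present in replicate 1 only, *PBI1* was at 8.56, 5.88 and 6.15. *POX1*, of beta-oxidation, was named after its values were seen. It was read at 9.43, 7.44 and 7.42 in ino2Δ, against 9.45, 9.52 and 9.28 in the reference. In ino4Δ, with *INO4* at background throughout, it was read at 6.11, 6.11 and 9.44. In ino2Δino4Δ replicates 2 and 3, with *INO4* at background too, it was read at 9.64 and 9.60. What part the *INO4* level, the gap and the 2-fold genes have in each other was not tested.

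**Figure D4:**
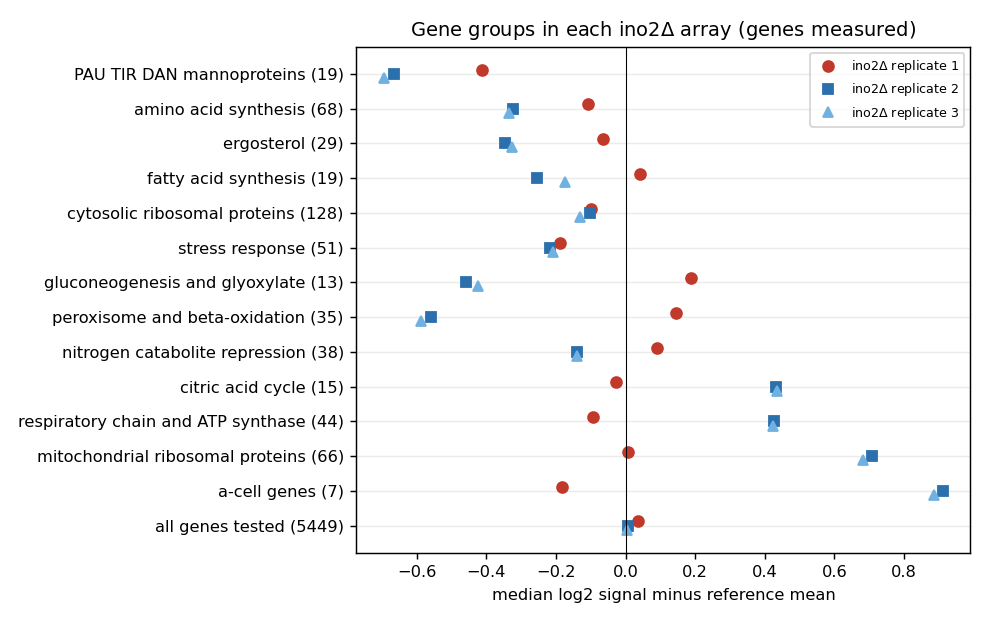
Median log2 difference from the reference mean (x axis) of 13 gene groups and of all genes in each ino2Δ array, with the number of genes measured in brackets. The mannoproteins were below 0 in every array (-0.41, -0.67 and -0.69), whereas peroxisome genes, respiratory genes and mitochondrial ribosomal proteins were near 0 in replicate 1 and away from it in replicates 2 and 3.

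The genes next to the deletion were read to see whether the cassette was accompanied by changes nearby. The 3 annotated genes on either side of *INO2* are *TRM1*, *DPB4*, *KIN1*, *YDR124W*, *ECM18* and *SWF1*. Their differences lay between -0.18 and 0.09, and none passed. *YDR124W* was at background in all 6 arrays and *ECM18* in all but reference replicate 1, so that a fall could not be read in them. Around *INO4* the measured neighbours *SHR5*, *ZEO1*, *YOL107W* and *WSC3* differed by -0.56 to 0.15, and none passed. *SHR5* was read at 7.92, 7.27 and 7.29 in ino2Δ, against 8.04, 7.99 and 8.13 in the reference. Without ino2Δ replicate 1 its difference in limma was -0.78, which did not pass either (adjusted p = 0.0106). The ratio of the 3′ to the 5′ probe set of the *ACT1* control, a sign of RNA integrity, was 1.01, 0.87 and 0.93 in ino2Δ and 0.74, 0.79 and 0.74 in the reference on the log2 scale. That of the *WBP1* control was also higher in every ino2Δ array, at 1.69, 1.55 and 1.58, against 1.29, 1.53 and 1.42 in the reference. The other two controls overlapped, *TDH1* at 0.43, 0.62 and 0.47 in ino2Δ, against 0.26, 0.52 and 0.44, and *SPT15* at 1.48, 1.28 and 1.35, against 1.46, 1.45 and 1.29. The part of these ratios in the results was not tested.

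Under carbon limitation the ino2Δ arrays were also set directly against the other deletion strains. Against ino4Δ, 5 of 5449 genes differed (0.0918%), 1 higher and 4 lower (0.0734%), or 4 higher and 4 lower after median centring of the arrays, while 1243 had an unadjusted p below 0.05. With the replicate number as a block none of the 5 passed, and the count was 0. *DIP2*, of ribosome assembly, was read at 7.39, 7.40 and 7.43 in ino2Δ, against 5.79, 5.63 and 7.09 in ino4Δ (1.23 ± 0.22, adjusted p = 0.0093). *CRC1*, the mitochondrial carnitine carrier, was read at 7.30, 7.20 and 7.23 in ino2Δ, against 8.82, 8.80 and 7.74 in ino4Δ (-1.21 ± 0.21, adjusted p = 0.0093). In both genes ino4Δ replicate 3, the array without *INO2* signal, was the nearest to ino2Δ. *TGL1*, *DIN7* and *YLR152C* were also lower in ino2Δ, and the last of these had overlapping groups. Without ino4Δ replicate 3 the count was 849, without ino2Δ replicate 1 it was 52, and without any of the other 4 arrays it was 0. With the arrays whose *INO* levels go against their labels left out, so that ino2Δ replicate 1 was set against ino4Δ replicates 1 and 2, it was 607, again with the spread of the lone array taken from the other groups.

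Against ino2Δino4Δ only *ENA5* passed, or 0.0184% of genes, while 485 had an unadjusted p below 0.05. It was read at 5.78, 5.66 and 5.70 in ino2Δ, against 6.44, 6.51 and 6.31 in ino2Δino4Δ (-0.71 ± 0.06, adjusted p = 2.6e-08). The count was 117 without ino2Δ replicate 1 and 4 without ino2Δino4Δ replicate 1, and 57 with ino2Δ replicate 1 set against ino2Δino4Δ replicates 2 and 3, with the spread taken in the same way. The phospholipid genes did not pass in either comparison. *INO1* was read at 6.01, 6.22 and 6.18 in ino2Δ, against 5.61, 5.48 and 6.32 in ino4Δ and 5.99, 6.20 and 6.38 in ino2Δino4Δ. Its difference was 0.34 ± 0.18 from ino4Δ and -0.05 ± 0.18 from ino2Δino4Δ, and a p that misses the threshold does not show that the strains were alike.

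The effect of the deletion was tested for a difference between limitations, as the N-limited effect minus the C-limited effect. It differed for 28 genes (0.514%), 7 with a more positive effect under nitrogen limitation and 21 (0.385%) with a more negative one, or 9 and 15 after median centring of the arrays. With ino2Δ replicate 1 as the only C-limited ino2Δ array, its spread again taken from the other groups, the count was 24. *INO1* was read at 5.64, 5.62 and 5.68 in N-limited ino2Δ, against 7.20, 7.75 and 7.66 in the N-limited reference, so that the reference itself was lower than under carbon limitation. The fall of *INO1* was 1.80 ± 0.25 log2 units smaller under nitrogen limitation (adjusted p = 0.00010). The background level was 5.43, 5.43 and 5.39 in the N-limited ino2Δ arrays, little below their *INO1* values. From the N-limited reference level a fall as large as under carbon limitation could therefore not have been read. For *OPI3*, *CHO2* and *ITR1* the difference was -0.90, -0.11 and -0.20, and none passed.

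The mannoprotein gene *PAU24* was low in the N-limited reference. It was read at 5.43, 5.37 and 5.37 in N-limited ino2Δ, against 5.58, 5.48 and 5.53 in the N-limited reference, and all 3 N-limited ino2Δ arrays were at background. Its effect under nitrogen limitation is therefore only a bound, and the size of the difference between limitations is not known. *EEB1*, an ethyl ester synthase, showed the reverse, at 7.17, 7.12 and 7.23 in N-limited ino2Δ, against 10.79, 10.73 and 10.82 in the N-limited reference. Under carbon limitation it was read at 6.80, 7.0 and 7.0 in ino2Δ, against 6.59, 6.67 and 6.82, and the effects differed by -3.84 ± 0.22 (adjusted p = 8.2e-12).

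**Figure D5:**
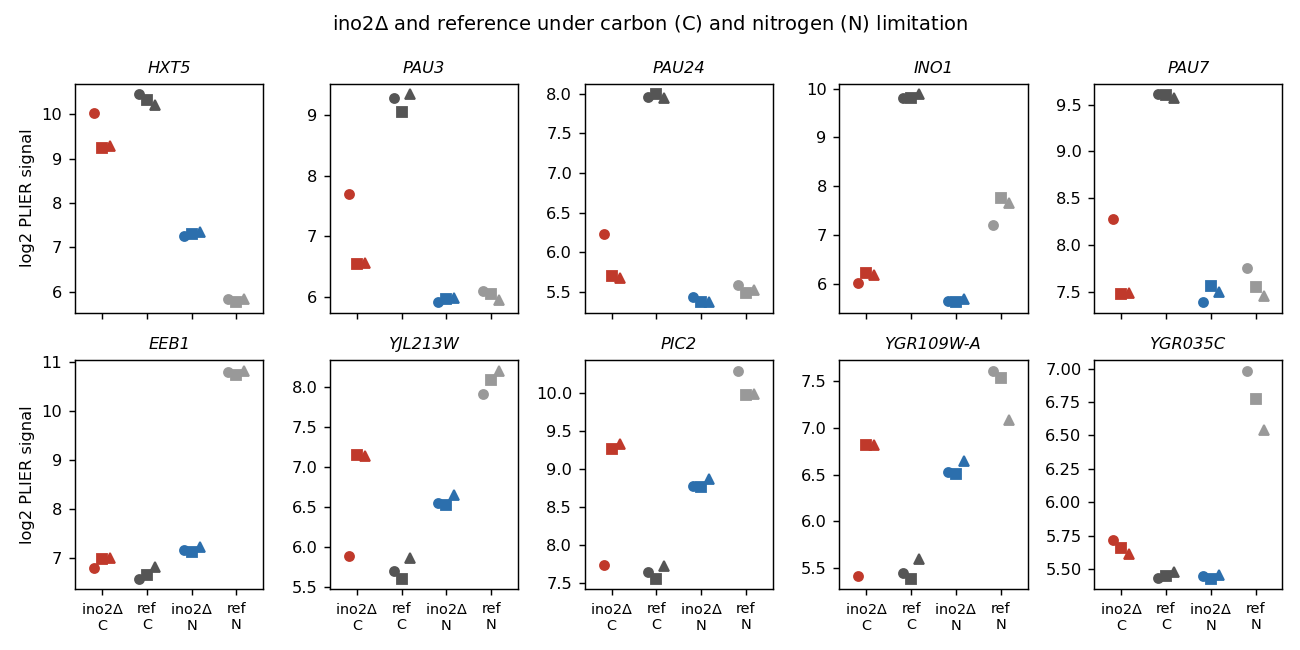
Log2 PLIER signal in each array of ino2Δ and the reference (ref) under carbon (C) and nitrogen (N) limitation for the 5 genes with the most positive and the 5 with the most negative difference between the effects; symbols mark replicates 1 (circle), 2 (square) and 3 (triangle), and the y axes differ between genes. *INO1* was lower in ino2Δ than in the reference in both limitations, and *EEB1* was lower in ino2Δ under nitrogen limitation.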

How the data were processed

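Total RNA was hybridised to Affymetrix Yeast Genome 2.0 arrays. The labels name the FastRNA Pro RED kit and the methods the RNeasy Mini Kit for RNA extraction. All 33 arrays had been processed jointly with PLIER (no version given), and the authors deposited the result as log2 values, in 1 table of 10928 probe sets. Values lay between 4.70 and 13.48, array medians between 7.14 and 7.44, and precision is limited by how few arrays a group had. Of 5498 probe sets with 1 *S. cerevisiae* gene, the one of highest mean was kept per gene, which left 5449 genes. GEO's platform annotation and RefSeq gave the names, and 12 older symbols were updated. The 95th percentile of 1746 probe sets outside the *S. cerevisiae* table was taken as background, and 288 genes had a mean below it.

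lmFit and eBayes of limma 3.58.1 (R 4.3.3) were run with 1 coefficient for each of 11 groups, 22 residual degrees of freedom and Benjamini-Hochberg adjustment over all genes. The script was tested on simulated data. Named were the regulators, the members of the lipid and methyl cycle lists, the 12 largest rises and falls, the 5 largest in each other comparison and each list's leading members, and others are marked. Members and lists were chosen with earlier results of these data known. Array scan dates were not given in the sources used here. The background level was 5.39, 5.41 and 5.41 in the C-limited ino2Δ arrays, against 5.49, 5.51 and 5.48 in the C-limited reference. Any difference in processing between these groups cannot be told apart from the strain. Same-numbered ino2Δ and reference arrays had deviations that correlated at 0.00, -0.06 and 0.03, so that the numbers do not pair them. Alternatives were other normalisations, filters, sample sets, thresholds and tests, and leaving out each array.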

Additional observations from a re-analysis of the deposited data

Results flagged for a closer look

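The effect of the *INO2* deletion differed between nitrogen and carbon limitation for 28 genes, by the limma test of the difference itself (N-limited effect minus C-limited effect, adjusted p below 0.01). The most positive differences were 2.30 for *HXT5*, a hexose transporter, 2.21 for *PAU3*, 1.96 for *PAU24*, 1.80 for *INO1* and 1.74 for *PAU7*. That of *PAU24* is an upper limit, since all 3 N-limited ino2Δ arrays were at background. *INO1* lay little above background in those arrays, so that a fall as large as under carbon limitation could not have been read. *PAU3* and *PAU7* had means of 6.03 and 7.59 in the N-limited reference, against 9.23 and 9.59 in the C-limited reference. Their means in N-limited ino2Δ were 5.95 and 7.48, so that the difference lay mainly in the level of the reference. *HXT5* had a log2 signal of 7.26, 7.30 and 7.34 in N-limited ino2Δ, against 5.84, 5.76 and 5.84 in the N-limited reference, and of 10.02, 9.24 and 9.29 in C-limited ino2Δ, against 10.46, 10.33 and 10.21 in the C-limited reference. The most negative differences were -3.84 for *EEB1*, -2.50 for *YJL213W*, -2.41 for *PIC2*, a mitochondrial carrier, -1.73 for *YGR109W-A* and -1.53 for *YGR035C*, the last 2 with 2 C-limited reference arrays at background. *YJL213W*, *PIC2* and *YGR109W-A* were higher in C-limited ino2Δ replicates 2 and 3 than in replicate 1. With replicate 1 as the only C-limited ino2Δ array, its spread taken from the other groups, their differences were -1.67, -1.37 and -0.79, and that of *YGR109W-A* did not pass (adjusted p = 0.179).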

How the results depend on the processing

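The fall of *INO1*, *ITR1*, *OPI3* and *CHO2* kept its direction in every alternative run, and its call in all but the methods' t-test, which *INO1* alone of these passed, and the fit of only the groups compared, where *ITR1* had an adjusted p of 0.016. The count of 45 genes was 16 with only the 6 arrays compared, 24 with only the C-limited arrays, 2 with the methods' t-test on the 6 arrays, 23 without the 4 arrays of mismatched *INO* levels (ino2Δ replicates 2 and 3, ino4Δ replicate 3 and ino2Δino4Δ replicate 1, with the spread of the lone ino2Δ array taken from the other groups), 25 with the mean of ino2Δ replicates 2 and 3 as 1 array (an alternative chosen after seeing the data), 111 at an adjusted p below 0.05 and 26 at 0.001. Leaving out 1 array gave 25 to 290, the highest without ino2Δ replicate 1. Several of these settings also held fewer arrays, and the cause of these changes was not tested. The count of 28 genes between limitations was 14 with only the 4 groups compared, 9 with the methods' t-test, 17 with the mean of replicates 2 and 3, 105 at 0.05, 14 at 0.001, and 17 to 272 without 1 array. It was 17 without ino2Δ replicate 2 or 3, 18 without C-limited reference replicate 2 or N-limited ino2Δ replicate 2, and 272 without C-limited ino2Δ replicate 1.

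The 5 genes between ino2Δ and ino4Δ became 8 after median centring or quantile normalisation (4 higher and 4 lower, against 1 and 4), 0 with only these groups, only the C-limited arrays, the methods' t-test, the mean of replicates 2 and 3 or a threshold of 0.001, 388 at 0.05, 607 without these 4 arrays, and 0 to 849 without 1 array. The single gene between ino2Δ and ino2Δino4Δ became 0 with only these groups or the methods' t-test, 57 without the 4 arrays, 5 at 0.05, and 1 to 117 without 1 array. *INO2* stayed at -1.01 with only the C-limited arrays but did not pass (adjusted p = 0.038). *INO4* passed without ino2Δ replicate 1, and its difference was -1.81 to -1.07 without 1 array.

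With the replicate number as a block, 48 genes changed between ino2Δ and the reference in place of 45, 27 in place of 28 between limitations, 0 in place of 5 against ino4Δ and 1 against ino2Δino4Δ, and *INO4* passed at -1.32 (adjusted p = 0.0081). Without the 4 arrays of mismatched *INO* levels the sign turned for genes that had not passed: *FDH1* was at 1.20, *ADH2* at 0.21, *ADY2* at 0.93, *ACS1* at 0.19, *MFA1* at -0.58, *STE2* at -0.40, *PCK1* at -0.059, *PAU8* at -0.33 and *PAU14* at -0.74. So it did for the neighbouring genes *KIN1*, at 0.092, *WSC3*, at 0.013, and *ZEO1*, at -0.14. *ZEO1* was at -0.0059 after median centring and -0.026 with the mean of replicates 2 and 3, and without 1 array *ZEO1* ran from -0.041 to 0.088 and *DPB4* from -0.069 to 0.097. No gene passed in the setting that turned its sign.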
